A study of Drosophila melanogaster with 16 samples.

Results

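The gustatory receptor (Gr) genes of Drosophila melanogaster were followed through 3 histone marks in 3 neuronal driver lines. Members were chosen by symbol alone, as Gr followed by a number and a letter, and 73 isoform entries for 62 of the 15182 genes in the per-gene table met that rule. They lie on chromosome arms 2L, 2R, 3L, 3R and X, and 59 of the 62 symbols are in use in RefSeq Release 6. The other 3, Gr36d, Gr43b and Gr65a, are named there as Gr-like genes. All 62 passed the filter on low counts in each mark.

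The nuclei came from pooled heads of adult flies in which a GAL4 driver switched on unc84-GFP, a nuclear envelope protein fused to GFP that allows nuclei to be pulled out on antibody-coated beads. R57C10-GAL4 acts in all mature neurons. OK107-GAL4 acts primarily in Kenyon cells, which build the mushroom body, and Tdc2-GAL4 primarily in octopaminergic neurons. Every line, R57C10 included, carried the same GFP fusion, so no group lacked it. Chromatin was cut with micrococcal nuclease and precipitated for H3K4me3, which marks active promoters, H3K27ac, which marks active promoters and enhancers, or H3K27me3, the mark laid by Polycomb repressive complex. There were 13 mark libraries and 3 input libraries, 1 input for each line. R57C10 had 2 libraries of each mark and Tdc2 had 2 of H3K27me3, called early and late by the date tag in their column names, and the other groups had 1. Nothing in the labels states that 2 libraries of a group are separate preparations. The p-values therefore rest on a spread between libraries that may be technical.

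Gustatory receptors are membrane proteins that form ligand-gated channels in insect taste neurons and other chemosensory neurons. Each such neuron of the mouthparts, legs or antennae uses only a part of the family. Sugars, bitter compounds, fructose, carbon dioxide, heat and some pheromones have known receptors among them, and several members lie in tandem clusters. None of the 3 drivers is specific to taste neurons, and the cell bodies of most taste neurons sit in appendages such as the proboscis and legs rather than in the brain. Since whole heads were pooled, neurons of head appendages may be among the nuclei, and their share was not measured. In such bulk chromatin, fewer nuclei carrying a mark and less mark in each nucleus cannot be told apart.

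Levels are given as log2 ratios of counts scaled to the library total (CPM) of a mark to those of the same line's input over the same stretch, with 1 CPM added to both. Where a gene has 1 value, it is the mean of the 3 lines. Such a ratio does not depend on gene length, and 0 means as many reads as the input. H3K27me3 was counted over the gene body and the other marks in 1001 bp promoter windows. Library totals ran from 7.77 to 54.75 M reads for H3K27me3 gene bodies, 6.01 to 46.64 M for H3K4me3 promoters and 7.95 to 17.2 M for H3K27ac promoters. The member with the fewest reads still had 59 in H3K27me3, 70 in H3K4me3 and 167 in H3K27ac. Neuronal marker genes, 8 of 9 matched, had median H3K27ac ratios of 1.36, 0.73 and 0.47 in R57C10, OK107 and Tdc2, and the 7 matched glial markers had -1.03, -0.55 and -0.40. The 3 octopaminergic markers (Tdc2, Tbh and Vmat) had a median H3K4me3 ratio of 0.03 in Tdc2 against -2.61 and -2.92 in R57C10 and OK107, although the Tdc2 median also stood higher for lists such as glia (-0.87 against -3.04 and -2.58). Support-cell genes of taste and smell organs, 5 of 8 matched, had H3K27ac ratios of -1.61, -0.88 and -0.60.

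Over gene bodies, the typical gustatory receptor gene carried more H3K27me3 than the typical gene, without reaching the most enriched ones. The members' median ratio was -0.11 against -0.65 over 14728 genes with a count in all inputs, and their median member stood at the 71.4th percentile. None of the 62 was at least 2-fold over input in every library, where 3.86% of all genes were. Above input in every library were 10 members against 12.7% of all genes, and below input in every library were 24 members against 56.5%. The range ran from -1.45 to 0.94, so the family held both genes near the bottom and genes near the top of the genome.

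The other chemoreceptor families lay close by. The median H3K27me3 ratio was 0.10 over 57 odorant receptor (Or) genes and -0.04 over 59 ionotropic receptor (Ir) genes, with median percentiles of 79.8 and 74.9. At the promoters the gustatory receptors had median ratios of -2.99 in H3K4me3 and -0.73 in H3K27ac, against -1.55 and 0.02 over 14765 genes. The odorant and ionotropic families had -2.96 and -2.88 in H3K4me3 and -0.45 and -0.95 in H3K27ac.

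**Figure D1:**
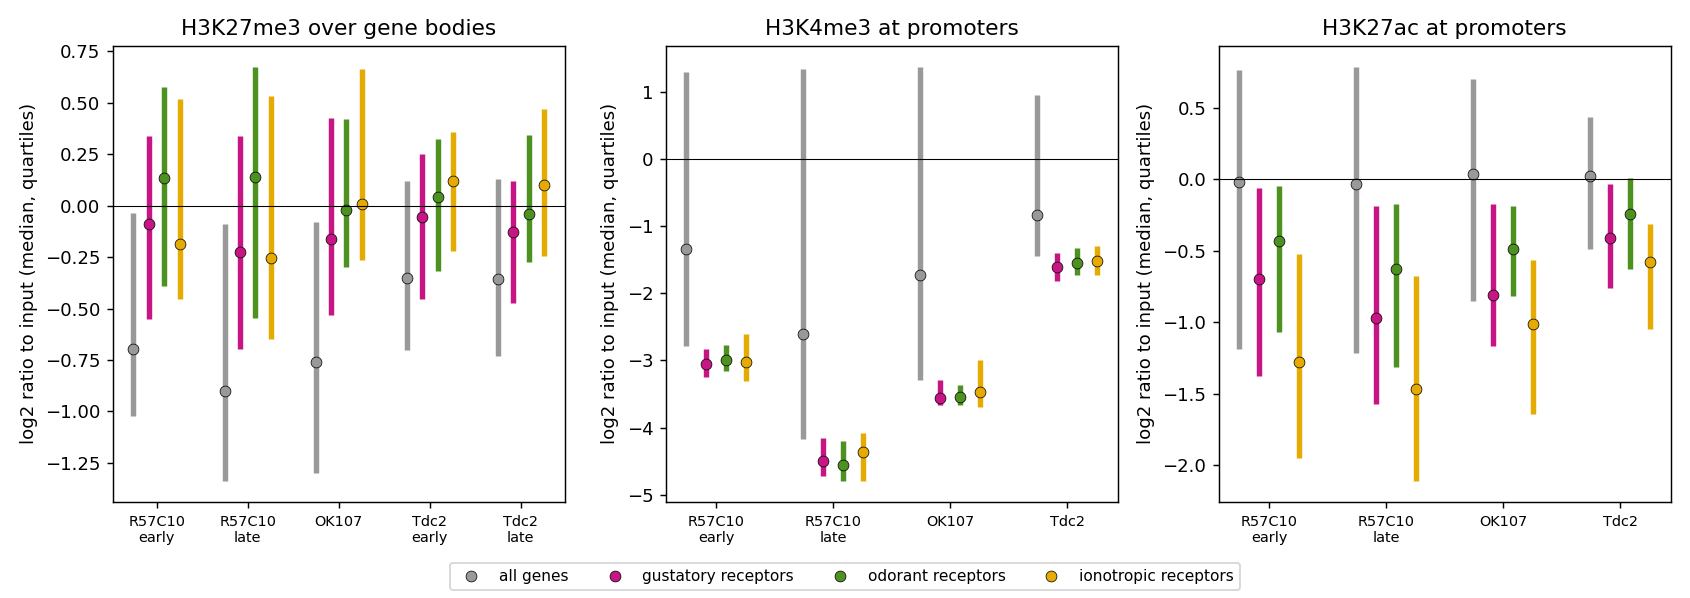
Median log2 ratio of mark to input (points) with the quartiles (bars) in each library for gustatory, odorant and ionotropic receptor genes and for all genes, 1 panel for each of the 3 marks. The gustatory receptors sit above the median gene in H3K27me3 in all 5 libraries (from -0.23 to -0.05 against -0.90 to -0.35) and below it in H3K4me3 and H3K27ac in all 4 libraries of each.

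The members with the most H3K27me3 were Gr98c, Gr59a, Gr21a, Gr57a and Gr59b. Gr98c (CG31060, 3R, 23370165 to 23371558 in dm3, plus strand), for which no ligand class was listed, had ratios of 0.79 and 0.95 in R57C10 early and late, 1.76 in OK107, and 0.20 and 0.18 in Tdc2 early and late. It was above input in every library and highest in OK107, with a mean of 0.94 at the 93.5th percentile. Gr59a and its neighbour Gr59b averaged 0.89 and 0.68, and Gr57a averaged 0.74. These 3 were highest in R57C10, and Gr57a differed between the Tdc2 libraries (0.67 early, 0.10 late).

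Gr21a (CG13948, 2L, 780482 to 782885, plus strand) encodes a subunit of the carbon dioxide receptor of antennal neurons. Its H3K27me3 ratio was 0.92 and 0.82 in R57C10, 1.31 in OK107, and 0.19 and -0.01 in Tdc2. The line order was OK107, R57C10 and Tdc2, with no overlap between libraries of different lines, and the mean of 0.76 stood at the 91.9th percentile. Gr63a (CG14979, 3L, 3894999 to 3896603, minus strand) encodes the partner subunit that Gr21a needs to detect carbon dioxide. Its ratio was -0.85 and -1.19 in R57C10, -0.24 in OK107, and -0.65 and -0.57 in Tdc2, below input in every library, at the 51.0th percentile on average.

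The members with the least H3K27me3 were Gr66a, Gr43a, Gr47b, Gr58c and Gr32a. Gr66a (CG7189, 3L, 8298436 to 8300080, minus strand), the broad marker of bitter-sensing neurons and a caffeine receptor subunit, had ratios of -1.21 and -1.61 in R57C10, -1.44 in OK107, and -1.01 and -2.02 in Tdc2. It was the only member at least 2-fold below input in every library, where 1.13% of all genes were, and its mean of -1.45 stood at the 0.10th percentile. Its count in late Tdc2 was 59, and the Tdc2 libraries differed by 1.01 there, more than for any other member. Gr43a, the fructose receptor of taste organs and of a few brain neurons, had -1.16, -1.66, -1.47, -1.23 and -0.85 in the same order of libraries and averaged -1.31. Gr47b, Gr58c and the bitter and male-pheromone receptor Gr32a averaged -1.18, -1.12 and -1.10.

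Between libraries of 1 line the members were repeatable in H3K27me3 for R57C10 and less so for Tdc2. The median absolute difference between early and late was 0.11 for R57C10 and 0.24 for Tdc2. Standard deviations between members were 0.70 and 0.44. The Pearson correlation of early with late across members was 0.993 in R57C10 and 0.71 in Tdc2.

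**Figure D2:**
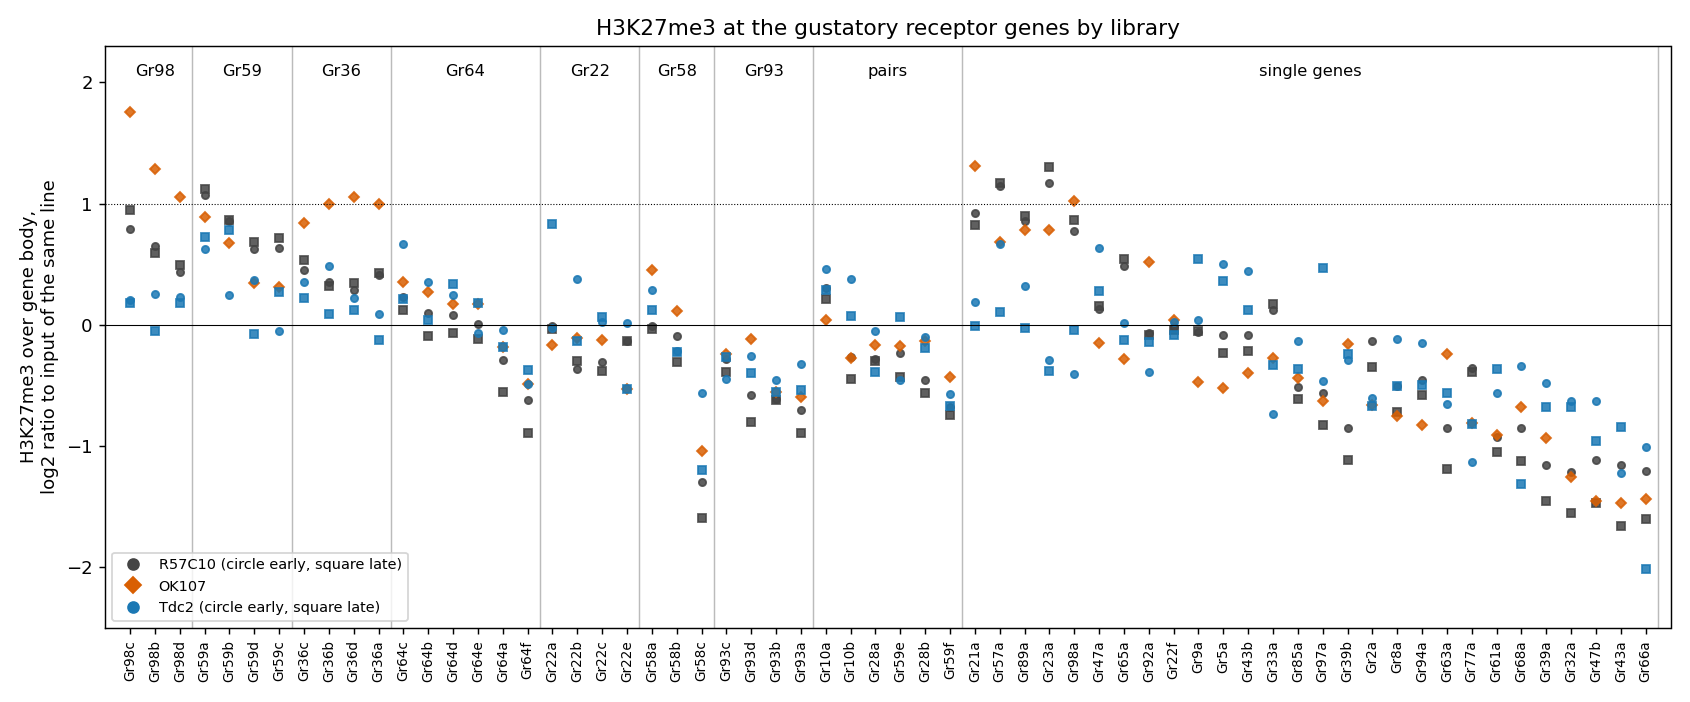
H3K27me3 log2 ratio to input over the gene body of each of the 62 gustatory receptor genes (columns of points grouped by genomic cluster) in each of the 5 libraries (colours). The Gr36, Gr59 and Gr98 clusters lie above 0 on average in every library, the Gr93 cluster below 0, and single genes span from -1.45 (Gr66a) to 0.76 (Gr21a) in the mean.

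Tandem position was the next division of the family. Members less than 20 kb apart formed 7 clusters of at least 3 genes, which held 28 members, and 6 others lay in pairs and 28 alone. The Gr98 cluster (Gr98b, Gr98c and Gr98d) averaged 0.73 ± 0.19 (SD between 3 members), with cluster means of 0.63 and 0.68 in R57C10, 1.36 in OK107, and 0.23 and 0.10 in Tdc2. The Gr59 cluster (Gr59a to Gr59d) averaged 0.58 ± 0.25 over 4 members, and its order of lines differed, with 0.80 and 0.85 in R57C10, 0.55 in OK107, and 0.30 and 0.42 in Tdc2. The Gr36 cluster (Gr36a to Gr36d) was the most even, at 0.52 ± 0.04 over 4 members, with 0.38 and 0.41 in R57C10, 0.97 in OK107, and 0.29 and 0.08 in Tdc2.

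The remaining clusters lay at or below input. The Gr64 cluster of 6 sugar receptors averaged -0.02 ± 0.32, running from Gr64c at 0.32 to Gr64f at -0.56. The Gr22 cluster averaged -0.12 ± 0.16 over 4 members and the Gr93 cluster, which holds the caffeine receptor Gr93a, -0.47 ± 0.14 over 4. The 3 members of the Gr58 cluster differed most from each other, with Gr58a at 0.21, Gr58b at -0.10 and Gr58c at -1.12. Cluster members share surroundings and, for overlapping pairs such as Gr64b with Gr64c, reads, so they are not independent of each other. How reads that match several near-identical receptors were counted is not given in the sources used here, and values within tandem clusters are uncertain to that extent.

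Classed by ligand, the 8 sugar receptors had a median H3K27me3 ratio of -0.01 (75.3rd percentile) and the 15 bitter or pheromone receptors -0.47 (56.1st percentile). The range within each class was wider than that gap. Sugar receptors ran from Gr61a at -0.79 to Gr64c at 0.32, with Gr5a, a trehalose receptor, at -0.08. Bitter and pheromone receptors ran from Gr66a at -1.45 to Gr98b at 0.67, with Gr89a at 0.60, Gr47a at 0.15, the bitter co-receptor Gr33a at -0.22, Gr22e at -0.31, Gr39b at -0.47, the canavanine receptor Gr8a at -0.56, and Gr68a and Gr39a, which act in male courtship, at -0.83 and -0.94. Gr28a and the heat and light receptor Gr28b had -0.23 and -0.26.

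The comparison of OK107 with R57C10 asked whether Kenyon cell nuclei differ from all neurons in marking. In H3K27me3 1 member was higher and 1 lower in OK107 by edgeR's quasi-likelihood test with Benjamini-Hochberg adjustment over all 14585 genes tested. Of all genes tested 1.57% were called higher and 0.617% lower. The median log2 fold was 0.14 over the 62 members and 0.01 over all genes, and 9 members (14.5%) had an unadjusted p under 0.05 against 9.73% of all genes. DESeq2 called 2 members higher and 1 lower, against 3.29% and 2.03% of the genes it gave an adjusted p, which leave out 5 members. Without either Tdc2 library, which enters the shared fit, 6 members were called, and without R57C10 late 1 was.

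Gr21a was the member called higher. Its level, in CPM scaled by trimmed mean of M-values (TMM), was 84.9 and 90.9 in R57C10 early and late and 158 in OK107. The single OK107 library lay above both R57C10 libraries, and libraries of the 2 lines were also apart in 44 of the 60 members not called and in 69.1% of all genes. The log2 fold was 0.85 ± 0.16 (SE, 2 and 1 libraries; edgeR adjusted p = 0.0193), but it missed the threshold with RLE scaling (0.84, adjusted p = 0.0534) and fell short with the inputs as an offset (0.49, adjusted p = 0.143). Its carbon dioxide partner Gr63a had a log2 fold of 0.80 ± 0.21 that did not pass (edgeR adjusted p = 0.0930), with 17.6 and 15.8 CPM in R57C10 and 29.1 in OK107. Gr98b had 0.77 ± 0.19 and did not pass either (edgeR adjusted p = 0.0610).

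Gr65a (CG32395, 3L, 6659738 to 6660916, minus strand), one of the Gr-like genes, was the member called lower. It had 34.4 and 41.1 CPM in R57C10 and 19.0 in OK107, with the OK107 library below both. The log2 fold was -0.99 ± 0.22 (edgeR adjusted p = 0.0392). The call was lost with RLE scaling (adjusted p = 0.0678), with the inputs as an offset (-0.80, adjusted p = 0.0700) and without R57C10 late (-0.86, adjusted p = 0.323).

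The comparison of Tdc2 with R57C10 set octopaminergic nuclei against all neurons. In H3K27me3 20 members were lower in Tdc2 and 0 were higher, against 14.7% and 4.93% of all genes tested. At an unadjusted p under 0.05 were 24 members (38.7%) against 32.4% of all genes. DESeq2 also called 20 members lower and 0 higher, against 16.1% and 4.67% of the genes it gave an adjusted p. The median log2 fold was -0.24 over members and 0.04 over all genes. The lower members included all 4 of the Gr36 cluster, all 4 of the Gr59 cluster, all 3 of the Gr98 cluster and 9 genes outside the clusters. In the odorant and ionotropic families 26 of 57 and 16 of 59 genes were lower, and 5 and 3 were higher.

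Gr23a (CG15396, 2L, 2669823 to 2672159, plus strand), which has alternative first exons, had the largest fold of the family in this comparison. Its level was 109.5 and 138 CPM in R57C10, 109.8 in OK107, and 31.7 and 30.2 in Tdc2. By CPM both Tdc2 libraries lay far below all others, with R57C10 and OK107 together. As a ratio to input, OK107 (0.78) lay below R57C10 (1.17 and 1.30) and above Tdc2 (-0.29 and -0.38). The log2 fold of Tdc2 against R57C10 was -2.0 ± 0.16 (SE, n = 2 and 2; edgeR adjusted p = 4.2e-05).

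Gr98a (CG13976, 3R), which lies more than 20 kb from the Gr98 cluster, had 64.3 and 78.4 CPM in R57C10, 79.4 in OK107, and 22.9 and 30.0 in Tdc2. Tdc2 was again the low line without overlap, with a log2 fold of -1.43 ± 0.18 (edgeR adjusted p = 1.9e-04). Gr98c had 43.9 and 56.2 CPM in R57C10 against 21.1 and 21.0 in Tdc2, a fold of -1.25 ± 0.18. Gr57a fell by 1.14 ± 0.19, Gr21a by 1.13 ± 0.14 and Gr77a by 1.13 ± 0.21 on the log2 scale, with edgeR adjusted p-values between 2.1e-04 and 0.0021. Gr65a, the bitter co-receptor Gr33a, Gr89a and Gr98b fell by 1.11, 1.09, 1.05 and 1.02.

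In each of the 20 genes called lower the R57C10 and Tdc2 libraries did not overlap, and the same was true of 24 of the 42 members not called. That makes 71.0% of the members, against 61.6% of all genes. Total-count scaling moved all genes up together, to a median of 0.12 over the members and 0.40 over all genes. The difference of the members' median from that of all genes was -0.28 under both scalings. With total counts 12 members were lower and 5 higher. Of all genes 36.6% were then called in either direction, against 19.7% with TMM. Without R57C10 late 12 members were called lower, and Gr2a, Gr59a, Gr59b, Gr98d and the 4 genes of the Gr36 cluster were not. Gr2a also missed the threshold without R57C10 early (edgeR adjusted p = 0.254), Gr59b without Tdc2 early (0.0501) and Gr36b without Tdc2 late (0.118).

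OK107 against Tdc2 compares 2 neuron classes directly. In H3K27me3 18 members were higher in OK107 and 0 lower, against 14.0% and 1.46% of all genes tested. At an unadjusted p under 0.05 were 25 members (40.3%) against 26.4% of all genes. DESeq2 called 17 members higher and 0 lower, against 15.1% and 1.77% of the genes it gave an adjusted p. The median log2 fold was 0.42 over the members and -0.04 over all genes. Among the odorant and ionotropic receptors 16 of 57 and 20 of 59 were higher, and 2 of each were lower. With total-count scaling the median was 0.02 over the members and -0.44 over all genes, the same 0.46 apart as with TMM. There 9 members were higher and 1 lower. Of all genes 25.5% were called in either direction with total counts, against 15.4% with TMM. Libraries of the 2 lines were apart in 49 members (79.0%), against 73.2% of all genes.

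Gr21a led with 158 CPM in OK107 against 42.7 and 37.6 in Tdc2, a log2 fold of 1.98 ± 0.17 (SE, 1 and 2 libraries; edgeR adjusted p = 7.6e-05). Gr23a followed at 1.83 ± 0.18, Gr98c at 1.82 ± 0.20, Gr98b at 1.79 ± 0.20 and Gr98a at 1.59 ± 0.21, with edgeR adjusted p-values from 8.4e-05 to 2.7e-04. On the linear scale these folds were 3.94, 3.55, 3.52, 3.47 and 3.01 in that order.

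Smaller folds followed in tandem. The Gr36 cluster gave 1.26, 0.95, 0.93 and 1.08 for Gr36a to Gr36d, Gr98d gave 1.24, Gr57a 1.00 and Gr89a 0.91. The Gr59 cluster gave 0.75, 0.81, 0.79 and 0.78 for Gr59a to Gr59d. Gr92a (0.83, adjusted p = 0.0282) and Gr63a (0.71, adjusted p = 0.0495) passed edgeR's test narrowly. Both missed it without R57C10 early (0.0753 and 0.166) or without R57C10 late (0.0870 and 0.164). Gr59b missed without Tdc2 early (0.0587) and Gr59d without Tdc2 late (0.0532).

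The 2 comparisons with Tdc2 share its libraries, so their calls are not independent. Both called 16 members, 80.0% of the 20 and 88.9% of the 18. Gr2a, Gr33a, Gr65a and Gr77a were called against R57C10 alone and Gr63a and Gr92a against OK107 alone; whether the comparisons differ for these genes was not tested. Under all 12 alternatives Gr21a, Gr23a, Gr98a, Gr98b and Gr98c kept their call in OK107 against Tdc2, and Gr23a, Gr33a, Gr65a, Gr77a and Gr98a in Tdc2 against R57C10.

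**Figure D3:**
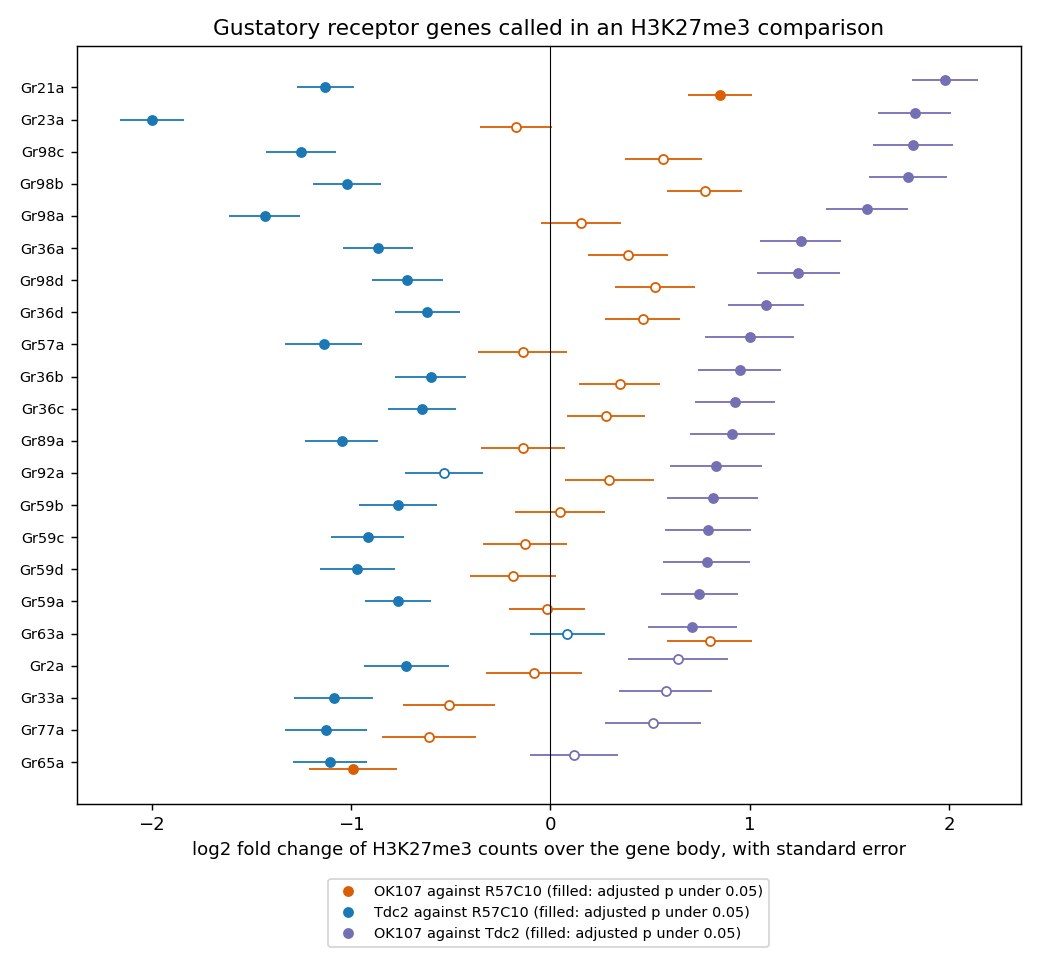
Log2 fold of H3K27me3 with its standard error for the 22 gustatory receptor genes called in at least 1 of the 3 comparisons, 1 colour per comparison, filled where the edgeR adjusted p was under 0.05. Folds of Tdc2 against R57C10 reach from -2.0 (Gr23a) and those of OK107 against Tdc2 reach 1.98 (Gr21a), while Gr21a and Gr65a alone are filled for OK107 against R57C10.

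The range of the libraries moved with these folds. Tdc2 ratios were compressed towards input over all genes, with quartiles of -0.70 and 0.12 in the early Tdc2 library against -1.30 and -0.08 in OK107 and -1.02 and -0.03 in early R57C10. The 7 photoreceptor markers, which are strongly marked, had median H3K27me3 ratios of 1.56, 1.29 and 0.62 in R57C10, OK107 and Tdc2. When the trend of the fold along enrichment was taken out, 5 members were lower in Tdc2 than in R57C10 and 6 higher in OK107 than in Tdc2. Gr23a and Gr98a were in both. With this scaling 6.42% and 5.01% of all genes were called in either direction, against 19.7% and 15.4% without it. That scaling also removes a real change that runs along enrichment. Within each mark R57C10 carried other date tags than the other lines, so line and date tag cannot be told apart in comparisons with it, while OK107 and early Tdc2 shared a tag in H3K27me3. Gene-body inputs of the members differed between lines by -0.43 (Gr39b) to 0.53 (Gr9a) on the log2 scale for OK107 and by -0.26 to 0.37 for Tdc2, both relative to R57C10.

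The surroundings of the called members were read from 10 kb windows set every 5 kb, available for OK107 and Tdc2, with the Tdc2 H3K27me3 libraries pooled by the authors. Of the 18 members called higher in OK107 than in Tdc2, 15 had the higher ratio in OK107 in their own window, where members of a cluster can share 1 window. The other 3 were Gr59a and Gr59b, whose shared window had 0.16 in OK107 and 0.26 in Tdc2, and Gr89a with 0.22 and 0.33. Gr63a was near equal, with 0.25 in both lines. The 18 members stand for 13 windows, and OK107 was higher in 11 of these. Of the 44 members not called, 0 had the higher ratio in OK107. The share of all windows with the higher ratio in OK107 was not counted. Window ratios are scaled to library totals, whereas the calls used TMM. The median fold of OK107 against Tdc2 over all genes was -0.44 with total counts and -0.04 with TMM. Under TMM 51 of the 62 members had a fold above 0. The members' windows also cover the gene bodies and come from the same libraries as the calls, so they are no independent check of them. Longer stretches were described for members chosen after their values were seen. Gr21a lay inside a block of 12 consecutive windows, with centres from -31.7 to 23.3 kb from the middle of the gene, in which the OK107 ratio stayed between 0.85 and 1.13. The pooled Tdc2 ratio there lay between -0.28 and 0.24. Past the block the OK107 ratio dropped to -1.16 at 33.3 kb, where Tdc2 had -0.92. H3K27ac in the block was near input in both lines, from -0.34 to 0.39 in OK107 and 0.06 to 0.50 in Tdc2.

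At an OK107 ratio of at least 0.5, the stretches that held the other members described were narrower and lower than that of Gr21a. The width depends on that limit. The OK107 ratio stayed above 0 from -36.7 to 28.3 kb around Gr21a and from -6.0 to 49.0 kb around Gr23a. Around Gr36b it did so from -9.4 kb to the last window read at 55.6 kb, and around Gr98c from -15.9 to -0.9 kb. Around Gr23a, 4 windows had OK107 ratios of 0.50 to 0.61 against -0.43 to -0.22 in Tdc2. At Gr98c, 3 windows with centres from -10.9 to -0.9 kb had 0.52 to 0.86 against -0.54 to -0.21, and the OK107 ratio was -1.49 at 9.1 kb, so Gr98c sat at an edge. A block is a run of windows that includes the gene's own and has OK107 ratios of at least 0.5, a limit set after seeing the data. Around Gr36b, 3 windows had 0.54 to 0.64 against 0.03 to 0.08. Higher runs lay near members without holding them: 4 windows with centres 43.9 to 58.9 kb from Gr64c had 1.24 to 1.74 in OK107 and 1.18 to 1.56 in Tdc2, and 6 windows from -55.3 to -30.3 kb of Gr59b had 0.54 to 1.57 and 0.70 to 1.40. Gr66a lay in a trough, with -1.60 in OK107 and -1.0 in Tdc2 in its own window.

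**Figure D4:**
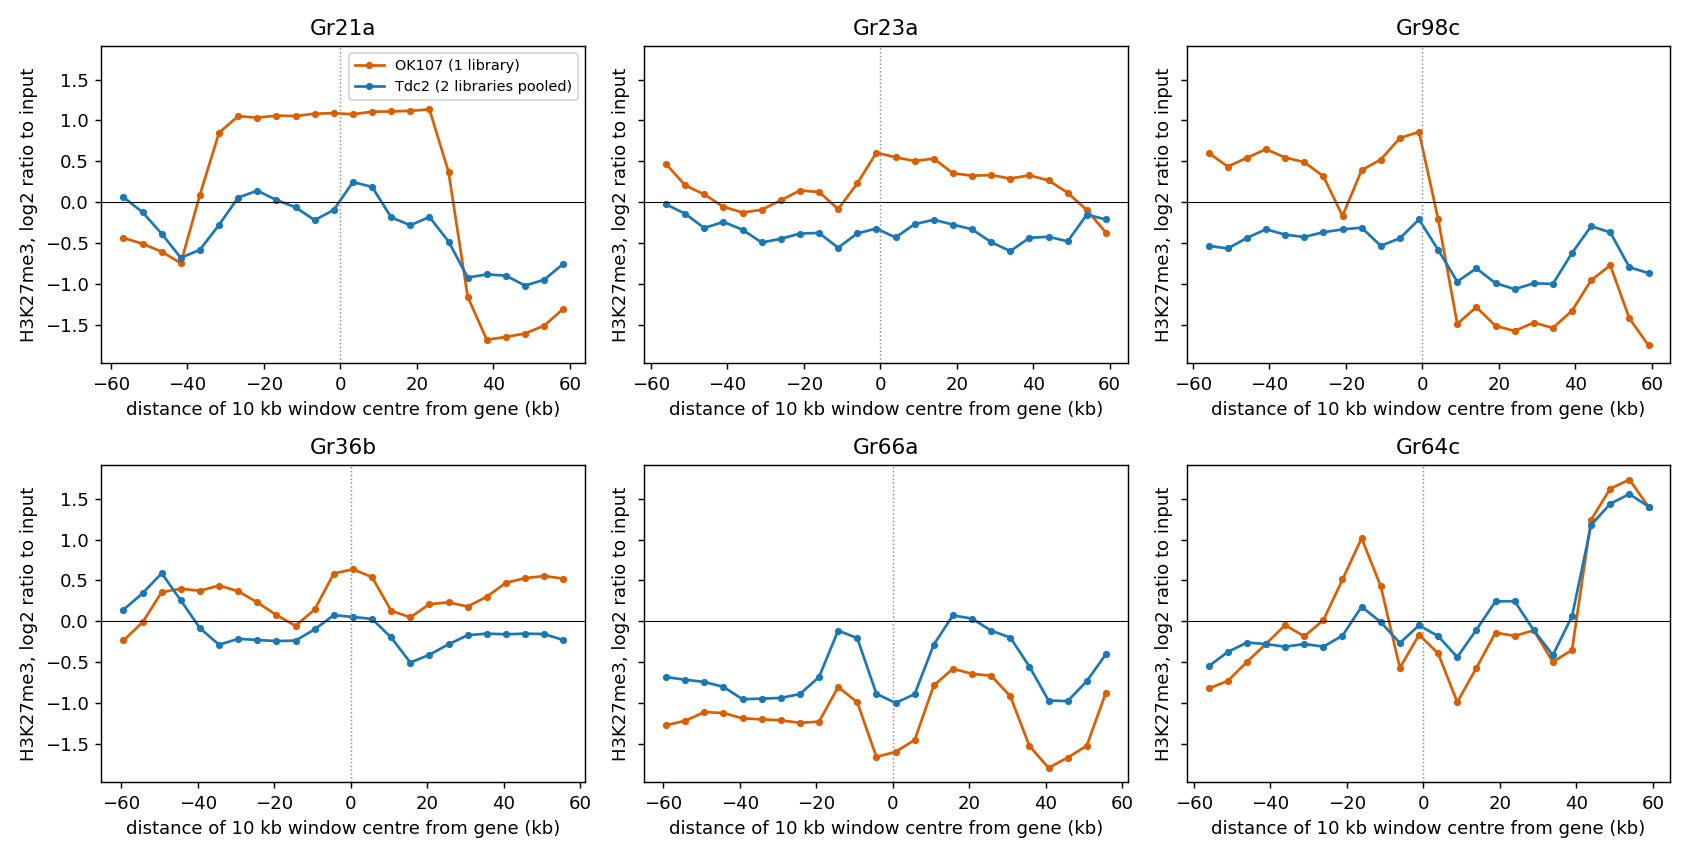
H3K27me3 log2 ratio to input in 10 kb windows against the distance of the window centre, in the direction of the chromosome, from the middle of Gr21a, Gr23a, Gr98c, Gr36b, Gr66a and Gr64c (kb), for OK107 (1 library) and Tdc2 (2 libraries pooled by the authors). The OK107 line forms a plateau of 0.85 to 1.13 across Gr21a and steps down past Gr98c, both lines lie below 0 at Gr66a, and both rise above 1.18 at 43.9 to 58.9 kb from Gr64c.

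Neighbouring genes that are not gustatory receptors moved with several members. Of all genes tested 14.0% were called higher in OK107 than in Tdc2, and the median log2 fold was -0.04. Within 25 kb of Gr21a, 5 of 5 tested neighbours were higher in OK107 than in Tdc2 in H3K27me3, with a median log2 fold of 1.65. The same held for 7 of 7 neighbours of Gr23a (median 1.25), 4 of 4 of Gr98a (1.70) and 3 of 3 of the Gr36 cluster (1.48). By contrast 1 of 4 neighbours of the Gr98 cluster was higher (median -0.06) and 0 of 8 neighbours of Gr63a (median -0.16).

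Around Gr57a 2 of 6 neighbours were higher and around Gr89a 1 of 7. Of the 18 members called higher, 9 had at least 50% of their neighbours called higher, and of the 40 other members with a neighbour none did. The 9 members stand for 5 places, since Gr36a to Gr36d share neighbours, as do Gr59c and Gr59d, and the 40 others stand for 27. The distance of 25 kb was chosen after seeing the data, and no test was made of this pattern. The share of neighbours called around genes outside the family was not counted.

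At promoters, H3K4me3 was below input across nearly the whole family. At least 2-fold below input in every library were 57 of the 62 members, against 45.4% of all genes, and below input in every library were 61, against 55.7%. No member (0 of 62) was above input in every library, against 38.9%, or at least 2-fold above, against 21.6%. The lowest were Gr22c at -3.31, Gr22a at -3.26, Gr59d at -3.24, Gr36c at -3.23 and Gr39b at -3.22, all under the 1.1st percentile.

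The highest H3K4me3 ratios belonged to Gr63a at -0.33, the sugar receptor Gr61a at -0.86, Gr47b at -1.30, Gr97a at -1.43 and Gr94a at -1.56. Gr63a had 0.11 and -0.30 in R57C10, -0.52 in OK107 and -0.37 in Tdc2, close to input in every line. For 4 of these 5 the counted promoter window also holds the start of a gene outside the family: CG14977 lies 297 bp from the Gr63a start, CG13902 lies 357 bp from Gr61a, CG5521 lies 458 bp from Gr97a and p53, in which Gr94a is nested, lies 459 bp from it. No other member had such a start in its counted window. These 4 had a median of -1.14, with 0 of 4 at least 2-fold below input in every library, against -3.01 and 57 of 58 for the rest. Gr39a differs: the start of Mio lies 397 bp from its RB start, which is not the counted one, and the ratio was -2.97 at RB and -2.81 at the counted RA start. The reads of such shared windows cannot be assigned to 1 gene. Gr47b, with no other start within 500 bp, had -0.95 and -2.38 in R57C10, -1.44 in OK107 and -0.80 in Tdc2.

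H3K4me3 gave no call between lines for any member. In OK107 against R57C10 and in Tdc2 against R57C10, edgeR and DESeq2 both called 0 of 62, and 0 members had an unadjusted p under 0.05, against 0.462% and 4.45% of all genes. Of all genes 0.00679% were called higher in OK107, 0.0% lower, and 0.0% in either direction in Tdc2, and DESeq2 called 0.00679% higher and 0.0272% lower in OK107 and 0.00679% higher in Tdc2. Libraries of the lines were apart in 17 members for OK107 and 59 for Tdc2 (27.4% and 95.2%), against 38.0% and 92.9% of all genes. Median folds of the members were 0.25 and 1.63, against 0.10 and 0.50 over all genes. The R57C10 libraries differed by a median of 1.43 on the log2 scale over the members. The fit had 1 residual degree of freedom and called at most 1 of 14732 genes, so it could not show differences of the members, whether smaller or larger than that spread. Side by side, the median ratio was -3.57 in OK107 and -1.61 in Tdc2, with Tdc2 above OK107 in 62 of 62 members. The median percentile within each library was 11.1 and 13.6. Over all genes the median was also higher in Tdc2, at -0.83 against -1.72 in OK107. Tdc2 ratios were compressed there, with quartiles of -1.44 and 0.94 against -3.29 and 1.37 in OK107. The share of all genes with Tdc2 above OK107 was not counted.

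H3K27ac at the promoters was below input for most members and above it for a few. It was above input in every library for 7 members against 40.4% of all genes, and below for 42 against 39.8%. At least 2-fold below input in every library were 4 members (Gr36a, Gr43a, Gr66a and Gr85a) against 7.71% of all genes, and 0 were at least 2-fold above, against 2.36%. The median stood at the 27.9th percentile.

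Gr77a led with 0.47 and 0.35 in R57C10, 0.72 in OK107 and 0.44 in Tdc2, and Gr22e, a bitter receptor, had 0.75, 0.72, 0.43 and 0.39 in the same order. Both were above input in each line. Gr32a averaged 0.49, Gr9a 0.49 and Gr68a 0.48, and Gr61a and Gr22f were also above input throughout. The bodies of 9 members are nested in or overlap another gene: Gr39a in Mio, Gr47a in CG42732, Gr68a in CG6024, Gr77a in CG13252, Gr94a in p53 and Gr9a in CG15312 are nested, and Gr32a, Gr43a and Gr8a overlap CG6230, CG11107 and CG12121. These 9 had a median H3K27ac ratio of 0.28, with 4 above input in every library, against -0.77 and 3 of 53 for members clear of other genes. In H3K27me3 their median was -0.72 against -0.08. Whether the other gene accounts for their reads was not tested.

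The lowest H3K27ac ratios were Gr59f at -1.52, Gr85a at -1.46, Gr59e at -1.42, Gr36b at -1.38 and Gr64c at -1.37. By cluster, Gr22 stood near input with a mean of 0.06 ± 0.31, whereas Gr64 had -1.12 ± 0.22 and Gr36 had -1.30 ± 0.10. The Gr36 cluster was thus high in H3K27me3 and low in H3K27ac, while Gr64 was near input in the first and low in the second. Sugar receptors had a median of -1.09 and bitter or pheromone receptors -0.30. Gr21a stood at 0.16 and Gr63a at -0.77.

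**Figure D5:**
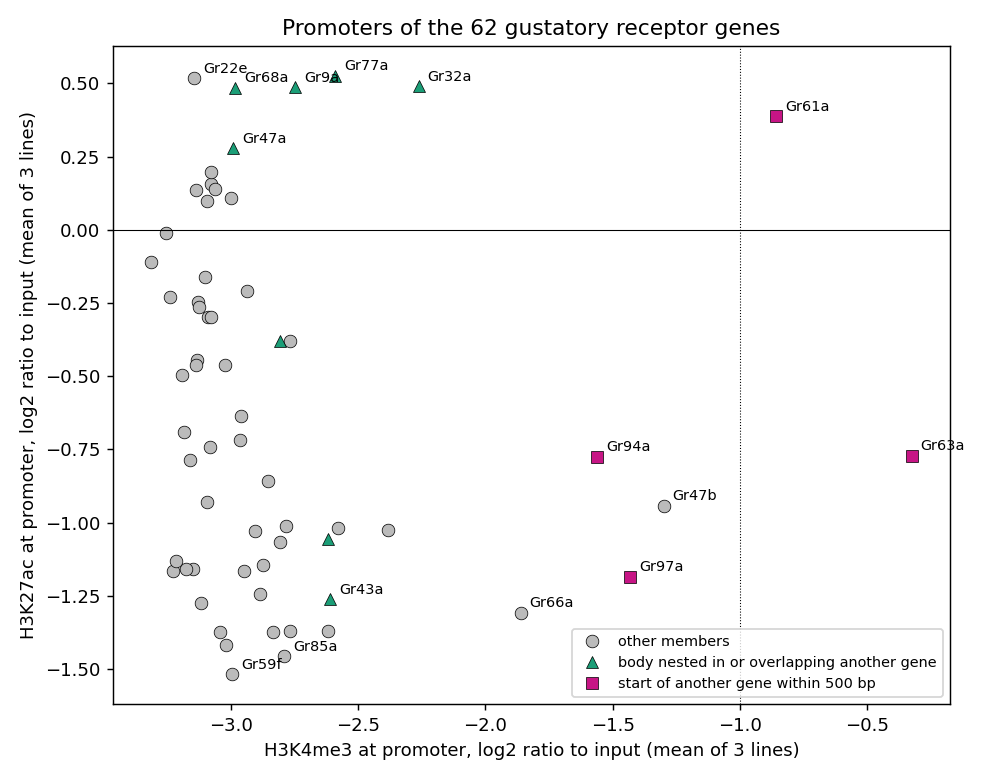
Mean log2 ratio to input of H3K4me3 (horizontal axis) against H3K27ac (vertical axis) in the promoter window counted for that mark, for each of the 62 gustatory receptor genes. The windows of the marks are at different starts for Gr28b, Gr39a and Gr64e. Squares are members with another gene's start within 500 bp of the start counted for H3K4me3. Triangles are the other members nested in or overlapping another gene. Most members lie near -3 in H3K4me3, the squares lie between -1.56 and -0.33, and the triangles reach an H3K27ac ratio of 0.53.

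In H3K27ac, OK107 against R57C10 called 2 members higher and 0 lower, against 7.42% and 3.07% of all genes. At an unadjusted p under 0.05 were 9 members (14.5%) against 25.5% of all genes. Gr43b had 19.8 and 19.5 CPM in R57C10 and 36.9 in OK107, a log2 fold of 0.91 ± 0.28 (SE, 1 and 2 libraries; edgeR adjusted p = 0.0194). Gr2a had 21.9 and 32.1 CPM in R57C10 and 49.8 in OK107, a fold of 0.89 ± 0.28 (edgeR adjusted p = 0.0242). OK107 lay above both R57C10 libraries in both genes, but the lines were also apart in 48 of the 60 members not called and in 80.9% of all genes. Neither passed with DESeq2 (adjusted p = 0.168 and 0.187), which called 0.884% of all genes higher and 0.34% lower, or with the inputs as an offset (0.72 and 0.33), and the promoter input of Gr2a was itself 0.56 higher in OK107 on the log2 scale.

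Tdc2 against R57C10 called 9 members higher and 0 lower in H3K27ac, against 20.2% and 7.68% of all genes. At an unadjusted p under 0.05 were 19 members (30.6%) against 40.7% of all genes, and DESeq2 called 6 higher and 0 lower against 12.1% and 2.62%. Gr59f had 29.0 and 24.9 CPM in R57C10 and 63.1 in Tdc2, a log2 fold of 1.22 ± 0.28 (edgeR adjusted p = 2.0e-04), and its divergent neighbour Gr59e had 30.8, 26.6 and 65.6 CPM, a fold of 1.19 ± 0.28. The Gr59e and Gr59f windows overlap, so these share reads. Gr8a (1.20), Gr2a (1.08), Gr28b (1.07), Gr43b (0.90), Gr64c (0.90), Gr64b (0.88) and Gr85a (0.84) followed. Tdc2 lay above both R57C10 libraries in each of the 9, and Tdc2 lay outside the R57C10 range in 42 of the 53 members not called too. In all that is 82.3% of the members, against 86.0% of all genes.

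All 9 had mean H3K27ac ratios below input, and in Tdc2 they remained below it: Gr59f had -2.05 and -2.23 in R57C10 and -0.72 in Tdc2. Tdc2 H3K27ac ratios were compressed over all genes too, with quartiles of -0.49 and 0.44 against -1.19 and 0.76 in early R57C10. With the trend along enrichment removed, 0 of the 9 were called. Of all genes 0.891% were then called in either direction, against 27.8% before. Side by side, the median member had -0.81 in OK107 and -0.41 in Tdc2, with Tdc2 above in 47 members and OK107 in 15. The members' median percentiles were 26.4 in OK107 and 28.2 in Tdc2. Over all genes the quartiles were -0.855 and 0.705 in OK107, wider than in Tdc2. The share of all genes with H3K27ac higher in Tdc2 than in OK107 was not counted.

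Members with alternative starts allowed a look within genes. Gr28b has 5 starts, and the mean H3K27ac ratio was -1.16 at the most upstream (RA), then -1.30 (RB), -1.53 (RC), -1.68 (RD, the heat-sensing form) and -1.75 at the most downstream (RE). This order held in both R57C10 libraries, while in OK107 RA and RB both had -1.42 and in Tdc2 RE (-0.94) stood above RC (-0.98). All 5 were below input in every library. Gr39a had -0.38 at RC, -0.72 at RB, -0.93 at RA and -0.98 at RD. The 2 starts of Gr23a had -0.25 and -0.28, and those of Gr64e -1.16 and -1.42. H3K4me3 at all these starts lay between -3.28 and -2.81.

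Other genes of taste signalling were taken as a list of 36, of which 35 matched. In H3K27me3 they had 1 member higher and 0 lower in OK107 against R57C10, 4 higher and 4 lower in Tdc2 against R57C10, and 8 higher and 1 lower in OK107 against Tdc2. The shares of all genes in the same order were 1.57% and 0.617%, 4.93% and 14.7%, and 14.0% and 1.46%. Poxn, the selector gene of taste bristles, was lower in Tdc2 than in R57C10 (-1.02 ± 0.16) and higher in OK107 than in Tdc2 (0.96 ± 0.18). The taste receptor Ir56d moved alike (-1.0 ± 0.16 and 1.37 ± 0.19), as did acj6, a POU factor of chemosensory neurons (-0.82 ± 0.16 and 0.75 ± 0.19). Others went the opposite way. Galpha49B (0.69 ± 0.15), Ggamma1 (0.61 ± 0.19), Snmp1 (0.60 ± 0.17) and tipE (0.54 ± 0.17) were higher in Tdc2 than in R57C10. Ir47a was lower in OK107 than in Tdc2 (-0.79 ± 0.20). The phospholipase norpA was higher in OK107 than in R57C10 (0.80 ± 0.16). These are edgeR calls at an adjusted p under 0.05, and the list's median folds were 0.05, -0.05 and 0.01 in the 3 comparisons against 0.01, 0.04 and -0.04 over all genes.

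In H3K4me3 none of the 35 was called. In H3K27ac 3 were higher and 1 lower in OK107 against R57C10, and 7 higher and 2 lower in Tdc2 against R57C10, where the shares of all genes were 7.42% and 3.07%, and 20.2% and 7.68%. The odorant-binding protein genes Obp19b and Obp49a, made by support cells, were higher in OK107 (1.25 and 1.14) and in Tdc2 (1.01 and 1.06). Their mean H3K27ac ratios were below input, at -0.93 (22.2nd percentile) and -1.32 (12.5th percentile). The gene acj6 was lower in OK107 (-1.74 ± 0.32).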

How the data were processed

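Nuclei of adult heads were profiled by ChIP-seq in 16 samples of 12 groups. The authors deposited read counts per FlyBase isoform, over gene bodies and in 1001 bp promoter windows, and in 10 kb windows every 5 kb. Per the submitters' processing notes CASAVA 1.8, Bowtie 0.12.7, bedtools 2.15 and the dm3 build were used, and the treatment of reads with several matches is not given in the sources used here. The deposited table's 61 columns of other samples were not used, and entries with no gene held 0.463 to 1.16% of each column.

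Each gene was represented by its most counted isoform in the libraries of a mark. Counts were tested with edgeR 4.0.16 (TMM, filterByExpr, quasi-likelihood test, all lines of a mark in 1 fit, Benjamini-Hochberg over all genes, threshold 0.05) in R 4.3.3. A single library was assumed to vary like the replicated groups. Alternatives were DESeq2 1.42.0, other scalings, no filter, an input offset, the isoform with the largest input, the 2 lines alone and leaving out each replicate. The fits were tested on simulated data. Those of H3K4me3 did not recover the changes put in, and those of the other marks recovered 2-fold changes only in part. Levels and percentiles were computed in Python 3.11.15 over genes with a count in all 3 inputs, which left out 454 genes for gene bodies and 417 for promoters, a choice made after seeing the data. OK107 and Tdc2 had 1 library each of H3K4me3 and H3K27ac and were set side by side without a test.

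Members and lists were chosen with earlier results of these data known. Genes were named by a rule: up to 10 called members by size of fold, the 5 highest and 5 lowest by level in each mark, members with a known ligand class, and cluster members. Other members named for calls lost, overlapping genes or surroundings were chosen after their values were seen. Counting error and the small number of libraries limit precision.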

Additional observations from a re-analysis of the deposited data

How the results depend on the processing

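No paired analysis was possible because the columns carry date tags and no replicate numbers. The counts of members called moved by more than 1.5 times in these cases. For OK107 against R57C10 in H3K27me3 (2 called), 5 were called with the 2 lines alone and 0 with RLE scaling, and the range was 1 to 6 when 1 replicate was left out. For Tdc2 against R57C10 (20 called) it was 5 with scaling along enrichment and 12 to 26 when 1 replicate was left out. For OK107 against Tdc2 (18 called) it was 6 with scaling along enrichment, 10 with total-count scaling and 17 to 25 when 1 replicate was left out. For H3K27ac in OK107 against R57C10 (2 called) it was 1 with the 2 lines alone, 0 with DESeq2 and 0 with the input offset. With scaling along enrichment 1 was called, lower. In that order 5.91%, 1.22%, 4.28% and 4.3% of all genes were called in either direction, against 10.5% in the fit reported first. For H3K27ac in Tdc2 against R57C10 (9 called) 17 members were called with the input offset and 16 with total-count scaling. With scaling along enrichment 1 was called, lower. In that order 36.2%, 30.3% and 0.891% of all genes were called, against 27.8% in the fit reported first. In H3K4me3 0 members were called in every alternative fitted, which says nothing about stability, since the fits had 1 residual degree of freedom and called at most 1.09% of all genes. Its median folds of 0.25 and 1.63 became 0.05 and 1.05 with RLE scaling, and -0.01 and -0.06 with scaling along enrichment. With scaling along enrichment the fold of Tdc2 against R57C10 turned to 0.08 for Gr36b and 0.088 for Gr36d in H3K27me3 and to -0.069 for Gr85a in H3K27ac. The count of members at least 2-fold over input in H3K27me3 was 0, and 1 (Gr59a) at 1.5-fold. The cause of these shifts was not tested. In H3K27me3 the share of all genes called in either direction moved too. For OK107 against R57C10 it was 2.19% in the fit reported first, 6.72% with the 2 lines alone and 1.0% with RLE scaling. For Tdc2 against R57C10 it was 19.7% at first and 6.42% with scaling along enrichment. For OK107 against Tdc2 it was 15.4% at first, 5.01% with scaling along enrichment and 25.5% with total counts. Fits at promoters without 1 replicate had no residual degrees of freedom and gave values with no test. Over the called members, 180 of 216 alternative values in OK107 against Tdc2 and 205 of 240 in Tdc2 against R57C10 kept direction and side of the threshold in H3K27me3, as did 19 of 24 in OK107 against R57C10.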
